A study of Mus musculus with 12 samples.

Results

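Cholesterol and fatty acid synthesis is described here through 30 genes: the regulators and a carrier (Srebf1, Srebf2, Insig1, Stard4), the enzymes that lead to farnesyl diphosphate, the enzymes that turn it into cholesterol, and the enzymes that make, lengthen and desaturate fatty acids. The 30 genes were listed by symbol, and a gene counted as measured when 1 or more of its probes were detected (p-value of detection below 0.05) on 3 or more of the 12 arrays. Of the 30 genes, 27 had a named probe in the table used and 26 were measured, out of 10315 genes measured in all. Hmgcs1, Fdft1 and Acat2 were not analysed here for lack of a named probe. Acaca, the acetyl-CoA carboxylase of lipogenesis, had a single probe that was not detected on any array. Of 44 probes named for these genes, 38 passed the filter.

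RNA was measured on Illumina mouse BeadChips of 45281 probes. All cells came from the marrow of 3-month-old BcorFl/Y mice, whose single Bcor allele carries loxP sites around exons 9 and 10, so the controls carried the floxed allele too. The marrow was cultured with stem cell factor at 50 ng/ml, IL6 at 25 ng/ml and IL-3 at 10 ng/ml, infected with a retrovirus and selected with puromycin. The 4 groups of 3 arrays were CD34+ cells with the Cre retrovirus, CD34+ cells with the empty retrovirus, unsorted bone marrow (BM) cells with the Cre retrovirus and BM cells with the empty retrovirus. Both CD34+ groups held marrow number 2 on 2 repeat arrays (F2-1, F2-2) and marrow number 4 on 1 array (F4). The BM groups carried repeat numbers 1 to 3, and nothing in the labels says that these were separate animals, so every p-value rests on a spread between arrays that may be partly technical. Because Cre came by retrovirus, each sample is a selected pool of infected cells.

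Cholesterol is built from acetyl-CoA through mevalonate, farnesyl diphosphate, squalene and lanosterol, while fatty acid synthase builds palmitate from acetyl-CoA and malonyl-CoA. Both arms are controlled by the SREBP transcription factors, encoded by Srebf1 and Srebf2, which sit in the endoplasmic reticulum membrane. When sterols are scarce they are cleaved and enter the nucleus, and Insig1 holds them back when sterols are plentiful. Dividing cells use these pathways to make membrane.

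Levels are given as log2 normalised intensity, on which 1 unit is a 2-fold difference. A comparison was called when limma's adjusted p was under 0.05, and errors on differences are standard errors of that fit. Detected probes made up 34.4% to 36.2% of all probes on CD34+ arrays and 37.5% to 39.2% on BM arrays. Bcor itself was lower in BM cells with Cre by 1.15 ± 0.24 (limma, adjusted p = 0.0062), at 45.0% of the control level. In CD34+ cells it stood at 8.93, 9.08 and 9.95 in the Cre arrays F2-1, F2-2 and F4, against 9.80, 9.69 and 9.91 in the matching control arrays. The CD34+ array labelled Cre of marrow 4 was therefore not lower in Bcor than its control. Where the probe lies relative to the floxed exons is not given in the sources used here, so its level is no direct measure of excision. All 10 mast cell markers were detected on all 12 arrays, with group means between 9.51 (Tpsab1, CD34+ Cre) and 15.85 (Cma1, BM Cre). The Cd34 transcript averaged 10.07 ± 0.49 in CD34+ Cre arrays and 10.26 ± 0.19 in CD34+ control arrays, and 9.05 ± 0.38 in BM Cre arrays and 10.17 ± 0.16 in BM control arrays (SD, n = 3 each). Control CD34+ cells were thus 0.09 above control BM cells in Cd34 transcript (limma, adjusted p = 0.82), a difference that was not called.

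A pair of arrays in each population stood apart in these genes whichever virus the cells had received. In CD34+ cells the marrow 4 array lay below both marrow 2 arrays in both arms for 20 of 26 genes, as it did for 26.7% of all genes tested. The median gene of the pathway lay 0.85 lower in marrow 4 than in marrow 2 in the Cre arm, with 23 of 26 genes below, and 0.58 lower in the control arm, with 24 of 26 below. The median over all genes differed by only 0.02 in both arms. In BM cells, repeat 2 lay below the other repeats in both arms for 22 of 26 genes, as it did for 19.4% of all genes, with pathway medians of -0.39 with Cre and -0.54 without. Proliferation markers moved with marrow number too: 6 of 6 were lower in marrow 4 with Cre (-2.01 to -0.61) and 5 of 6 without (-1.64 to -0.74), where Pcna was 0.16 higher. In BM repeat 2 they did not follow: 6 of 6 were higher than in the other repeats with Cre (0.07 to 0.55) and 3 of 6 without (-0.09 to 0.16). Their part in the result was not tested. Results are therefore also given within pairs of arrays of the same number.

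**Figure D1:**
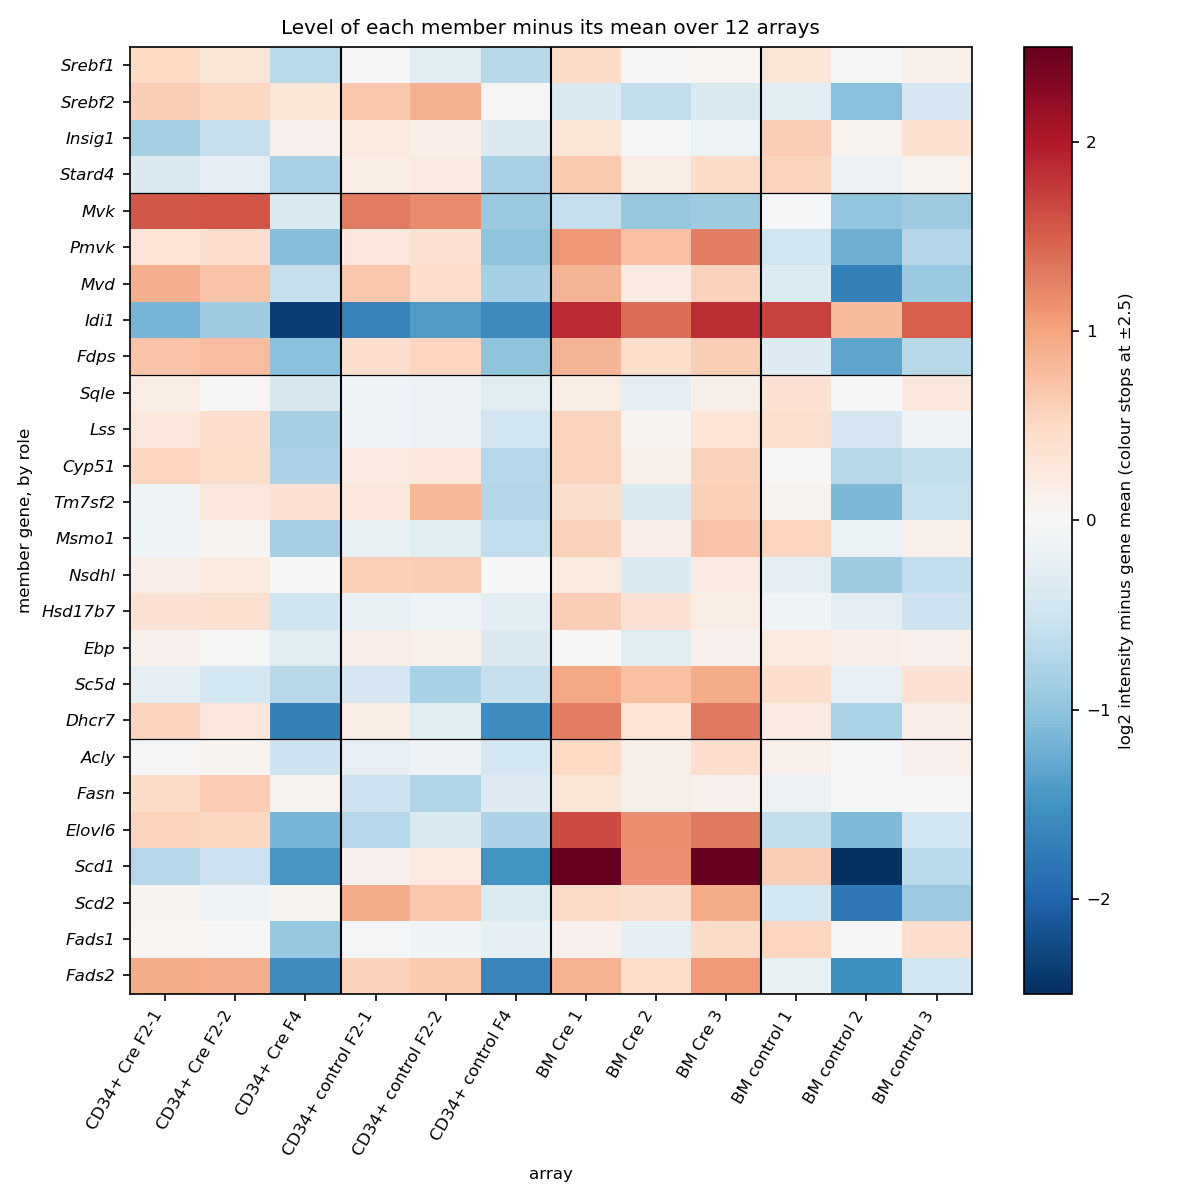
Level of each of 26 genes on each of 12 arrays, as log2 intensity minus that gene's mean over all arrays, with genes grouped from top to bottom as regulators, mevalonate arm, sterol arm and fatty acid arm. The marrow 4 column is the bluest of each CD34+ group (medians -0.69 with Cre and -0.66 without), and BM control repeat 2 the bluest of its group (median -0.56).

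Promoter sequence was looked at because many of these genes moved together between arrays. Of the 30 genes, 23 were matched to 28 promoters of RefSeq (GRCm38.p6), each read over the 250 bases before the start site. No promoter was available for Stard4, Fdps, Fdft1, Sqle, Scd1, Scd2 and Fads1. Acat2, Hmgcs1 and Acaca had promoters but were not measured on the arrays. The motifs searched on both strands, where matches may overlap, were TCACNCCAC (a sterol response element), CCAAT (the NF-Y box), GGGCGG (the Sp1 box) and CACGTG (an E-box). NF-Y and Sp1 are known partners of SREBPs at sterol genes. CCAAT was present in 19 of the 28 promoters (67.9%), against 33.8% of all 32851 promoters and 35.2% of the promoters of measured genes. GGGCGG was in 21 of 28 (75%), against 32.7% of all promoters and 56.2% of those of measured genes. CACGTG was in 4 of 28 (14.3%), against 6.02% and 8.48%. TCACNCCAC was in 1 of 28, that of Hmgcs1, against 1.05% and 1%. The stretches that hold the matches in 4 genes called in a Cre comparison below are shown, with matches in capitals and read 5′ to 3′ on the gene's own strand. Matches are descriptions of letters and not of binding.

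Pmvk (GRCm38.p6, chr3:89454395-89454419, plus strand, bases 146 to 122 before the start): ctcaggttggCCAATtcacagcatc
Mvd (chr8:122443435-122443572, minus strand, bases 150 to 13 before the start): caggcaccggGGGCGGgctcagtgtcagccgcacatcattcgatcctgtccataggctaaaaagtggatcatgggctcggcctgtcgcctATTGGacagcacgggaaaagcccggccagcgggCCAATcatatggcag
Sc5d (chr9:42264310-42264550, minus strand, bases 250 to 10 before the start): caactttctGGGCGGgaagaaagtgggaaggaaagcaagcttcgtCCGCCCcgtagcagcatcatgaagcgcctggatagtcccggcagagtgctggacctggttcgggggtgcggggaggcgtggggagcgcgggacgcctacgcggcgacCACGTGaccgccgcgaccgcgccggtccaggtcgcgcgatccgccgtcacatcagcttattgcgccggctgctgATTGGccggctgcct
Fasn (chr11:120824592-120824647, minus strand, bases 100 to 45 before the start): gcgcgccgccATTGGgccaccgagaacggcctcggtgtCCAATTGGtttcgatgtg

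ATTGG and CCGCCC are CCAAT and GGGCGG read on the other strand, and CCAATTGG holds an overlapping match on each strand. The Fasn stretch holds CCAAT 3 times and the Mvd stretch 2 times beside 1 GGGCGG. The promoter of Elovl6 and a second promoter of Pmvk held none of the motifs in this window.

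In BM cells, Cre was accompanied by higher levels of 6 of the 26 genes and lower levels of none: Scd1, Elovl6 and Scd2 of fatty acid desaturation and elongation, Pmvk and Mvd of the mevalonate arm, and Sc5d of the last sterol steps. Over all genes tested, 8.59% were called higher and 8.13% lower. With no adjustment, 10 of the 26 had a p under 0.05 on the higher side and 0 on the lower side (limma). Over all genes tested, 3022 of 10315 had such a p in either direction. The median change of the 26 genes was 0.49, against -0.07 over all genes, and 21 of 26 were above 0. All 3 Cre arrays lay above all 3 control arrays for 13 of 26 genes, as they did for 17.3% of all genes.

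Markers of other cell types moved with the same BM comparison. All 11 measured neutrophil markers were higher with Cre, and their summed linear intensity ranged over 187614 to 235410 on BM Cre arrays, against 7472 to 11563 on BM control arrays, with Elane and Prtn3 undetected on all BM control arrays. Eosinophil markers were called higher for 4 of 5 genes, with sums of 106764 to 119305 in BM Cre and 1757 to 13326 in BM control. Monocyte markers were called higher for 4 of 5 (sums of 14880 to 15493 with Cre, against 994 to 1736 without), erythroid markers for 3 of 4 (757 to 2044, against 227 to 299) and stromal markers for 2 of 3 (2472 to 3338, against 317 to 2487). Mast cell markers were called higher for 1 of 10 and lower for 4 (255727 to 284763, against 309731 to 362426). Progenitor markers were split, with 3 of 6 higher and 3 lower (sums of 19519 to 30613, against 39232 to 50250). Most of that sum was Kit (14.42 ± 0.38 with Cre and 15.31 ± 0.23 without, SD), which is also in the mast cell list. The 3 higher genes, Cd27, Prom1 and Sox4, were undetected on all BM control arrays. No proliferation marker was called, and the sums were 16257 to 23999 with Cre and 14848 to 15348 without (limma, no unadjusted p under 0.05). The part of these cell types in the changes of the synthesis genes was not tested. In bulk RNA, more cells of a type and more RNA per cell cannot be told apart.

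Scd1, the stearoyl-CoA desaturase that makes oleate, had the largest change of the 26. It stood at 12.61, 11.08 and 12.55 in BM Cre repeats 1 to 3, against 10.56, 7.39 and 9.25 in the matching control repeats. The groups did not overlap, and repeat 2 was the lowest array in both. The difference was 3.01 ± 0.72, an 8.07-fold higher level with Cre (limma, adjusted p = 0.0134), and the call was lost without BM Cre repeat 1 (2.75, adjusted p = 0.059). The difference was 2.17 (adjusted p = 0.0448) without BM control repeat 2 and 3.76 (adjusted p = 0.0041) without BM control repeat 1. Scd2, a second desaturase isoform of the mouse, stood at 9.13, 9.06 and 9.57 with Cre, against 8.22, 6.87 and 7.75 without. That was 1.64 ± 0.36, or 3.12-fold higher (adjusted p = 0.0086). Elovl6, which lengthens palmitate to stearate and so feeds the desaturases, stood at 10.35, 9.87 and 10.02 with Cre, against 8.10, 7.61 and 8.22 without. Its Cre arrays were tight and clear of the controls, at 2.10 ± 0.38 or 4.29-fold higher (adjusted p = 0.0026).

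The other genes of the fatty acid arm were not called. Fads2, the delta-6 desaturase of polyunsaturated fatty acids, stood at 9.60, 9.18 and 9.81 in BM Cre arrays, against 8.55, 7.21 and 8.27 in BM control arrays. Its groups did not overlap, but the difference of 1.52 ± 0.72 had an adjusted p of 0.18. Acly, which supplies cytosolic acetyl-CoA, stood at 13.69, 13.34 and 13.62 with Cre, against 13.32, 13.17 and 13.30 without, a difference of 0.29 ± 0.16 (adjusted p = 0.25). Fasn, the fatty acid synthase, differed by 0.24 ± 0.18 (95% interval -0.15 to 0.63). Fads1, the delta-5 desaturase, differed by -0.21 ± 0.26 (95% interval -0.78 to 0.35).

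**Figure D2:**
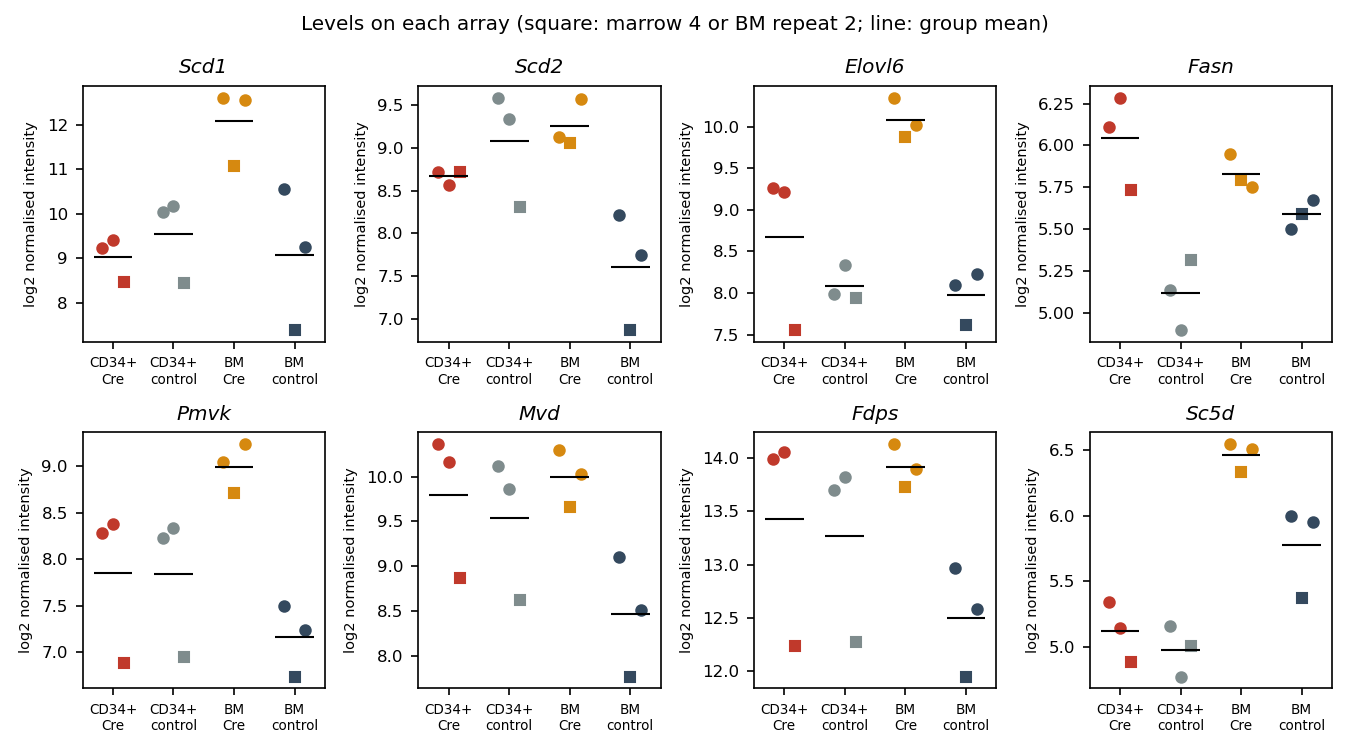
Log2 normalised intensity of 8 genes on each array, by group, with squares for marrow 4 (CD34+) or repeat 2 (BM) and a line at the group mean. BM Cre arrays lie above BM control arrays in all 8 panels, and the marrow 4 squares of Mvd, Pmvk and Fdps lie below the marrow 2 circles in both CD34+ arms.

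In the mevalonate arm, Pmvk, which phosphorylates phosphomevalonate, stood at 9.04, 8.71 and 9.24 in BM Cre arrays, against 7.50, 6.74 and 7.24 in BM control arrays. It was higher by 1.84 ± 0.44, or 3.58-fold (limma, adjusted p = 0.0132), with no overlap, and the call was lost without BM control repeat 2 (1.63, adjusted p = 0.059). Mvd, the decarboxylase of the next step, stood at 10.29, 9.66 and 10.03 with Cre, against 9.10, 7.76 and 8.51 without. It was higher by 1.54 ± 0.47, or 2.90-fold (adjusted p = 0.045), and its call was lost without BM Cre repeat 1 (1.39, adjusted p = 0.148), BM Cre repeat 2 (1.70), BM Cre repeat 3 (1.52), BM control repeat 2 (1.19) or BM control repeat 3 (1.56), and without either F2-2 array of the CD34+ cells, which share the fit. Fdps, the farnesyl diphosphate synthase, stood at 14.13, 13.73 and 13.89 with Cre, against 12.96, 11.95 and 12.58 without. The groups did not overlap, and the difference was 1.42 ± 0.49 (adjusted p = 0.073). A second Fdps probe, detected on all 12 arrays, gave 0.92 (limma, adjusted p over probes = 0.179). Idi1, the isopentenyl diphosphate isomerase, differed by 0.38 ± 0.35 and Mvk, mevalonate kinase, by -0.17 ± 0.61, neither called. The median of the 5 measured genes of this arm was 1.42.

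In the sterol arm the median of the 10 measured genes was 0.63, with 8 above 0 and 1 called. Sc5d, the lathosterol oxidase, stood at 6.55, 6.33 and 6.51 in BM Cre arrays, against 6.00, 5.37 and 5.95 in BM control arrays. It was higher by 0.69 ± 0.20, or 1.61-fold (limma, adjusted p = 0.0381), and the call was lost without any one of the 3 BM Cre repeats, BM control repeat 2 or 3, or CD34+ Cre F2-2 (adjusted p = 0.052 to 0.149). In the authors' value table the Sc5d difference was 1.35. Hsd17b7, a 3-ketosteroid reductase of the pathway, stood at 11.22, 10.97 and 10.80 with Cre, against 10.51, 10.38 and 10.10 without, and its difference of 0.67 ± 0.22 had an adjusted p of 0.059. Cyp51, the lanosterol demethylase, stood at 11.24, 10.82 and 11.27 with Cre, against 10.71, 9.99 and 10.09 without (0.85 ± 0.36, adjusted p = 0.14). Dhcr7, which reduces 7-dehydrocholesterol, stood at 9.06, 8.12 and 9.12 with Cre, against 8.02, 7.01 and 7.97 without (1.10 ± 0.59, adjusted p = 0.25). For these 3 genes no Cre array fell below any control array. Nsdhl, a sterol dehydrogenase, stood at 9.66, 9.06 and 9.61 with Cre, against 9.20, 8.53 and 8.81 without, so that repeat 2 with Cre lay within the control range (0.60 ± 0.23, adjusted p = 0.107). Tm7sf2, a sterol reductase, stood at 6.80, 6.06 and 7.002 with Cre, against 6.49, 5.30 and 5.86 without (0.74 ± 0.41, adjusted p = 0.26), with 2 of 3 control arrays detected. The remaining 4 genes of the arm, Sqle, Lss, Msmo1 and Ebp, had differences between -0.24 and 0.37 and none was called.

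None of the 4 regulators was called in BM cells, and 0 had an unadjusted p under 0.05 (limma). Srebf1 differed by 0.03 ± 0.30 and Srebf2 by 0.14 ± 0.24, with 95% intervals of -0.62 to 0.69 and -0.39 to 0.67. Stard4, a cytosolic sterol carrier, differed by 0.27 ± 0.28. Insig1, the SREBP retention factor, differed by -0.32 ± 0.26 on its brightest probe, but its other 2 detected probes gave 0.95 and 1.00 (adjusted p over probes = 0.189 and 0.290). The direction of Insig1 therefore depends on the probe.

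The labels do not say that BM Cre and control arrays of one repeat number belong together. In these same data they deviated together across genes (r = 0.134, 0.429 and 0.365 for repeats 1, 2 and 3), least for repeat 1. The changes were therefore also read within pairs, which is a description and no independent support. Within BM pairs of repeats 1, 2 and 3 the median change of the 26 genes was 0.41, 0.56 and 0.57. Fdps differed by 1.16, 1.78 and 1.31 within these pairs, and Dhcr7 by 1.05, 1.11 and 1.15. With the repeat number as a replicate block, 12 of 26 genes were called higher with Cre, against 12% of all genes. The added calls were Fdps (1.42 ± 0.13, adjusted p = 1.2e-04), Fads2 (1.52 ± 0.19, adjusted p = 5.8e-04), Dhcr7 (1.10 ± 0.18, adjusted p = 0.0027), Cyp51 (adjusted p = 0.0032), Hsd17b7 and Nsdhl (adjusted p = 0.0148 and 0.0149). Scd1 had an adjusted p of 1.7e-04 in that fit. With marrow number as the block, which has no term for BM arrays, 12 of 26 were called higher too. With each population fitted alone, 10 were. The all-gene shares of those fits are not given here. How much of the gain came from pairing the BM arrays was not tested.

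**Figure D3:**
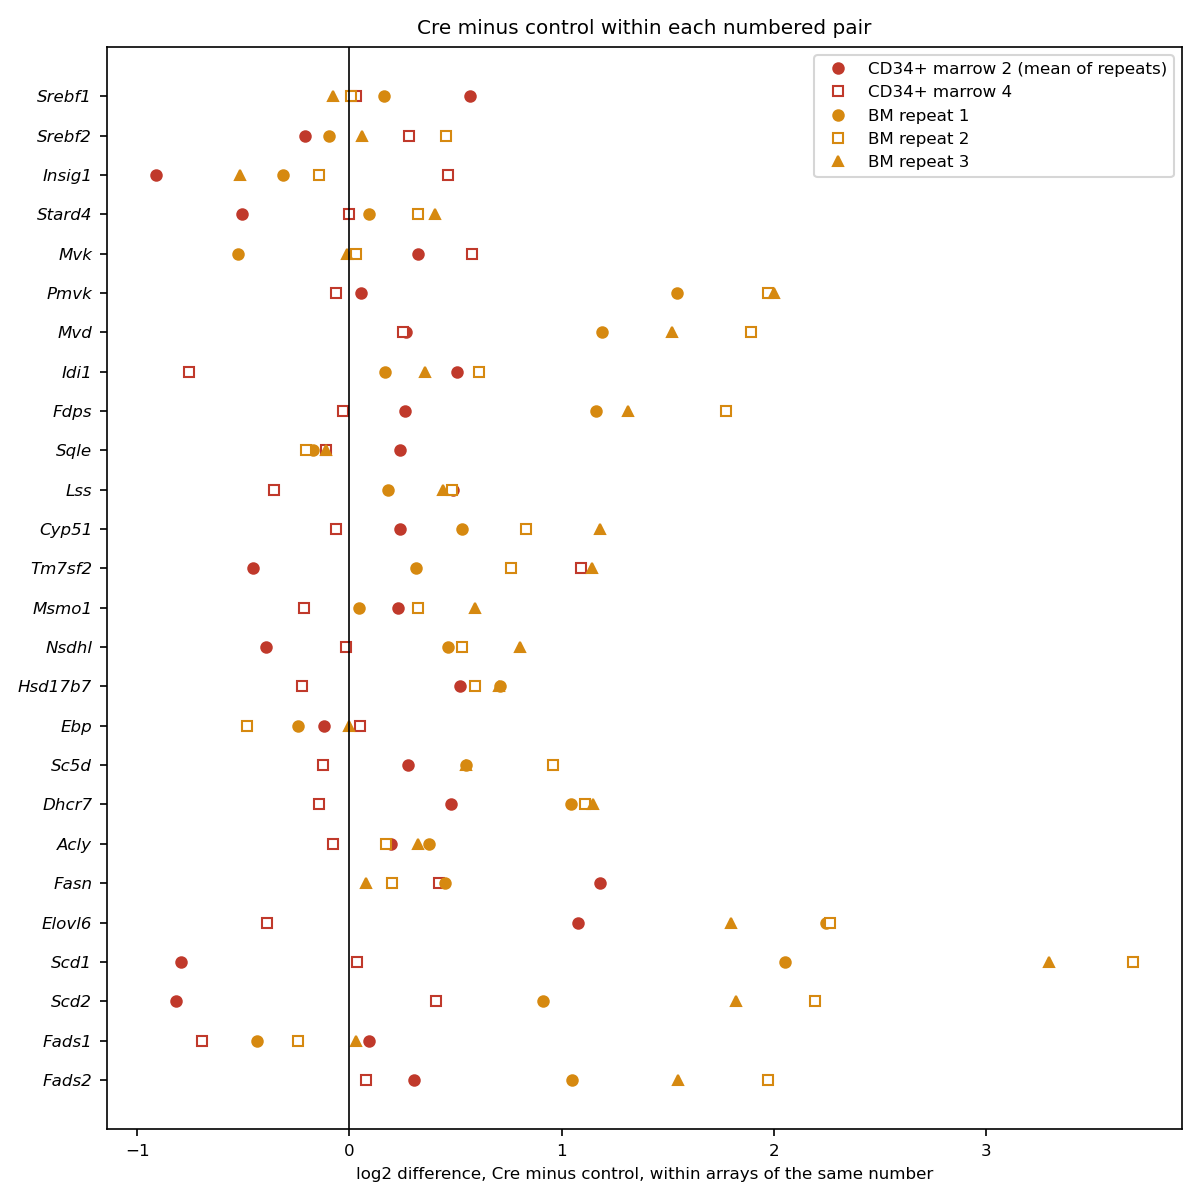
Cre minus control log2 difference of each gene within arrays of the same number, with BM repeats 1 to 3 in orange and CD34+ marrows 2 and 4 in red. All 3 BM points lie above 0 for Pmvk, Mvd, Fdps, Dhcr7, Elovl6, Scd1, Scd2 and Fads2, while the red points of Scd1 and Scd2 for marrow 2 lie below 0.

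In CD34+ cells 1 of the 26 genes was called with Cre, Fasn, against 0.727% of all genes in either direction. Fasn stood at 6.11, 6.29 and 5.74 in CD34+ Cre arrays F2-1, F2-2 and F4, against 5.14, 4.90 and 5.31 in CD34+ control arrays. All 3 Cre arrays lay above all controls, but the probe was detected on none of the control arrays. The level with Cre was therefore at least 1.45-fold higher (fitted difference 0.93 ± 0.18, limma, adjusted p = 0.0403). Within marrow 2 the difference was 1.18 on the mean of both repeats, and within marrow 4 it was 0.42. The call was lost without either marrow 2 array of either arm (adjusted p = 0.144 to 0.186), without BM Cre repeat 1 or 2 or any 1 BM control repeat, which share the fit (adjusted p = 0.065 to 0.072), and when both repeats were averaged (0.80, adjusted p = 0.47), and it was kept without the array labelled Cre of marrow 4 (1.08, adjusted p = 0.0034). With marrow number as a replicate block Fasn stayed the single gene called (adjusted p = 0.0197), against 3.09% of all genes, and with the repeat number as a block it was not called (adjusted p = 0.064).

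The other 25 genes had no called change in CD34+ cells and no unadjusted p under 0.05 (limma). Their differences ran between -0.52 for Scd1 and 0.59 for Elovl6, and the median of all 26 was 0.11, with 18 above 0, against 0.01 over all genes. That median turned on single arrays: it was -0.08, -0.06 and -0.23 without Cre F2-1, Cre F2-2 and control F4, with 9 of 26 above 0 each time, and 0.43 without Cre F4. The intervals were wide where marrow 4 lay far below marrow 2: Scd1 had a 95% interval of -2.09 to 1.06 and Fads2 of -1.33 to 1.80. Elovl6 stood at 9.26, 9.22 and 7.55 in CD34+ Cre arrays, against 7.99, 8.34 and 7.94 in CD34+ control arrays. The marrow 2 arrays were higher with Cre and the marrow 4 array lower. Without the array labelled Cre of marrow 4, which was not lower in Bcor, Elovl6 (1.15, adjusted p = 0.0093) and Hsd17b7 (0.56, adjusted p = 0.048) were called beside Fasn. The regulators differed by 0.39 ± 0.30 for Srebf1, -0.05 ± 0.24 for Srebf2, -0.45 ± 0.26 for Insig1 and -0.34 ± 0.28 for Stard4. On the brightest probes, in the mevalonate arm the 5 differences ran between 0.02 and 0.41 and in the sterol arm between -0.27 and 0.27. A second Fdps probe, detected on all 12 arrays, gave -0.66 (limma, adjusted p over probes = 0.56), against 0.16 on the brightest. Sc5d was undetected on all 6 CD34+ arrays, so it gives no fold there. No marker list gave more than 1 call in CD34+ cells, the monocyte marker Fcgr1 being called (adjusted p = 0.0455) with all control arrays undetected. Of 10 mast cell markers 0 were called, and 1 had an unadjusted p under 0.05 on the higher side and 3 on the lower side (limma). Over all genes tested, 1233 of 10315 had such a p in either direction. Neutrophil markers summed to 32277 to 36097 with Cre and 16821 to 33785 without, nearly all of it Ctsg (15.06 ± 0.09 with Cre and 14.61 ± 0.53 without), with 7 of 11 undetected on all CD34+ Cre arrays and 10 of 11 on all CD34+ control arrays.

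**Figure D4:**
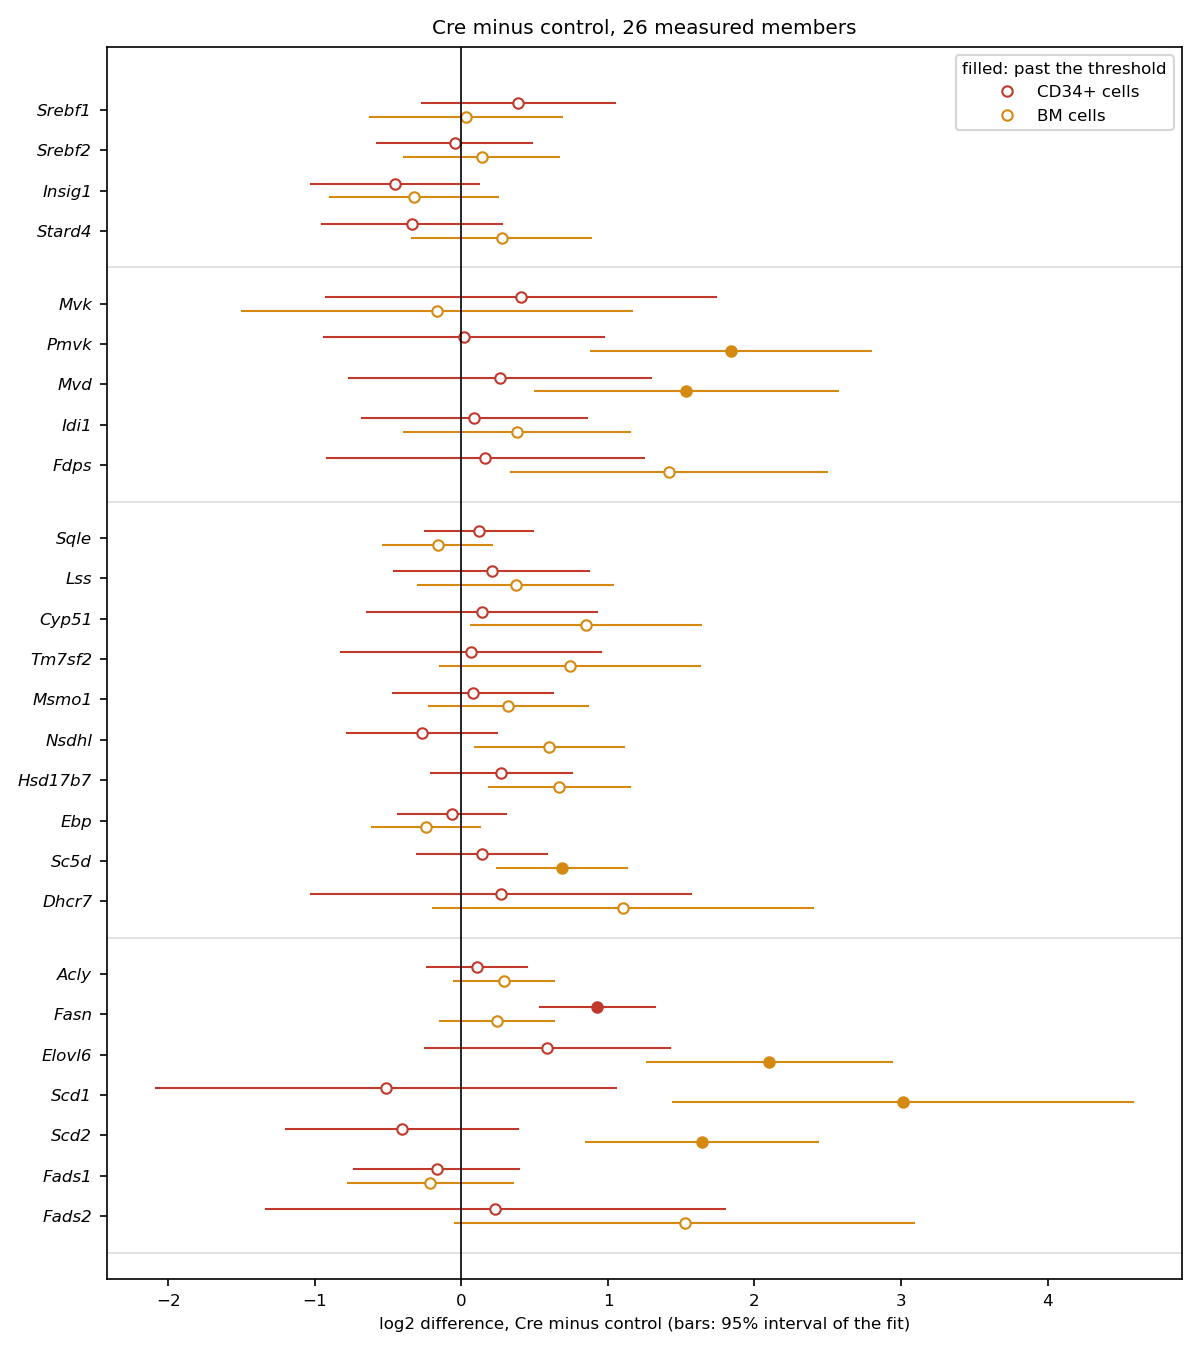
Cre minus control log2 difference of each of 26 genes in CD34+ cells (red) and in BM cells (orange), with 95% intervals of the fit over 12 arrays and filled symbols for called genes. Called genes in BM cells lie between 0.69 and 3.01, and Fasn at 0.93 is the single filled red symbol.

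Whether the Cre difference itself depended on the population was tested as CD34+ minus BM. It was called for 1 of 26 genes, Scd2, against 5.75% of all genes. Scd2 stood at 8.72, 8.57 and 8.72 in CD34+ Cre arrays, against 9.59, 9.33 and 8.31 in CD34+ control arrays, a difference of -0.41 ± 0.36. Set against 1.64 in BM cells, that gave -2.05 ± 0.51 (limma, adjusted p = 0.0371). Leaving out 1 array gave between -2.43 and -1.68 with adjusted p between 0.0077 and 0.0974, and the call held without the F4 array of either CD34+ arm or BM control repeat 1 and was lost without any other array. It was also lost with the repeats of marrow 2 averaged (-1.85, adjusted p = 0.18) and with marrow by arm as a random block (-1.87, adjusted p = 0.127). The median over the 26 genes was -0.47, against 0.06 over all genes, and 20 of 26 were negative. Without CD34+ Cre F4 the median was -0.21, with 9 of 26 above 0. Scd1 stood at 9.23, 9.41 and 8.48 in CD34+ Cre arrays, against 10.05, 10.17 and 8.44 in CD34+ control arrays, and its difference of Cre differences was -3.53 ± 1.02 (adjusted p = 0.071). Pmvk gave -1.82 ± 0.62 (adjusted p = 0.131), Elovl6 -1.51 ± 0.54 (adjusted p = 0.158) and Fasn 0.68 ± 0.25 (adjusted p = 0.175). With repeat numbers as a replicate block, which puts the 2 arrays of marrow 2 in separate blocks, 7 of 26 genes were called, against 9.2% of all genes: Scd1 (adjusted p = 0.0012), Pmvk (0.0017), Fdps (0.0038), Mvd (0.0078), Fads2 (0.0185), Scd2 (0.0198) and Nsdhl (0.0299). All 7 were more positive in BM cells. The repeat number did not set pairs apart in marrow 2: Cre F2-1 deviated alike with control F2-1 (r = 0.372 across genes) and control F2-2 (0.356). With marrow number as the block 5 were called: Pmvk (adjusted p = 0.0019), Scd2 (0.0166), Fdps (0.0189), Scd1 (0.030) and Elovl6 (0.0323). The all-gene share under that block is not given here, so this count is not read as a result about the pathway. With the repeats of marrow 2 averaged, 0 were called. Neutrophil markers were also called in this test, for 11 of 11 genes.

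The CD34+ and BM arrays were set side by side within each virus. These comparisons share arrays with those above, and population cannot be told apart from any handling that went with it. Quantile normalisation also matters here: with arrays scaled to a common median the all-gene median was -0.25 in both comparisons, where the main setting had 0.13 with Cre and 0.07 with the empty virus, and the called genes of the 26 split 0 higher to 11 lower with Cre and 0 higher to 5 lower without. In the authors' value table they split 0 higher to 7 lower with Cre and 2 higher to 1 lower without. In the main setting the split was 2 higher to 8 lower with Cre, against 27.5% and 21.4% of all genes, and 3 higher to 2 lower with the empty virus, against 20.2% and 17.8%. With numbers as a replicate block, 13 of 26 were called with the empty virus, against 47.9% of all genes.

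Idi1 was lower in CD34+ cells whichever virus was used. It stood at 7.04, 7.31 and 5.84 in CD34+ Cre arrays, against 10.06, 9.59 and 10.04 in BM Cre arrays, and at 6.53, 6.80 and 6.60 in CD34+ control arrays, against 9.89, 8.98 and 9.68 in BM control arrays. The groups were well apart, at -3.17 ± 0.35 with Cre and -2.88 ± 0.35 without, or 8.98-fold and 7.34-fold lower (limma, adjusted p = 2.2e-05 and 7.8e-05). Sc5d was at least 1.93-fold lower with Cre and at least 1.20-fold lower without, since it was not detected on any CD34+ array. Srebf2, the SREBP of sterol genes, was higher in CD34+ cells, at 10.56, 10.47 and 10.25 with Cre, against 9.59, 9.36 and 9.59 in BM Cre arrays. It was 1.89-fold higher with Cre (adjusted p = 0.0080) and 2.15-fold higher without (adjusted p = 0.0037), and both calls were lost with median scaling. The call with Cre was also lost with the mean of probes and in the authors' value table. With the empty virus the brightest Srebf2 probe gave 1.10, while its other probe, detected on all 12 arrays, gave 0.44 (limma, adjusted p over probes = 0.10).

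Other members were called under 1 virus. With Cre, Scd1 (-3.04 ± 0.72), Elovl6 (-1.40 ± 0.38), Pmvk (-1.14 ± 0.44), Stard4 (-0.91 ± 0.28), Msmo1 (-0.77 ± 0.25) and Acly (-0.52 ± 0.16) were lower in CD34+ cells and Mvk was higher (1.73 ± 0.61). Of 24 alternatives, Scd1 and Elovl6 were called in 24, Acly in 23, Stard4 and Msmo1 in 21 and Pmvk and Mvk in 15. Without CD34+ Cre F4, the array not lower in Bcor, the calls of Pmvk (-0.66), Stard4 and Msmo1 were lost. Leaving out BM Cre repeat 1 ended the calls of Stard4, Msmo1 and Acly, and BM Cre repeat 3 that of Msmo1. The call of Pmvk was lost without any 1 BM array or CD34+ control F2-1, and that of Mvk without any 1 BM Cre array, CD34+ Cre F2-1 or CD34+ Cre F2-2. Mvk stood at 9.44, 9.46 and 7.53 in CD34+ Cre arrays, against 7.32, 6.94 and 6.99 in BM Cre arrays, so that most of the difference lay in marrow 2. With the empty virus, Scd2 (1.46 ± 0.36) and Nsdhl (0.97 ± 0.23) were higher in CD34+ cells, and both calls were lost with median scaling. Of the 4 Nsdhl probes, the brightest gave 0.97 and another 0.94, while the other two gave -0.27 and 0.13, and the mean of the probes was not called (0.44, adjusted p = 0.14).

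**Figure D5:**
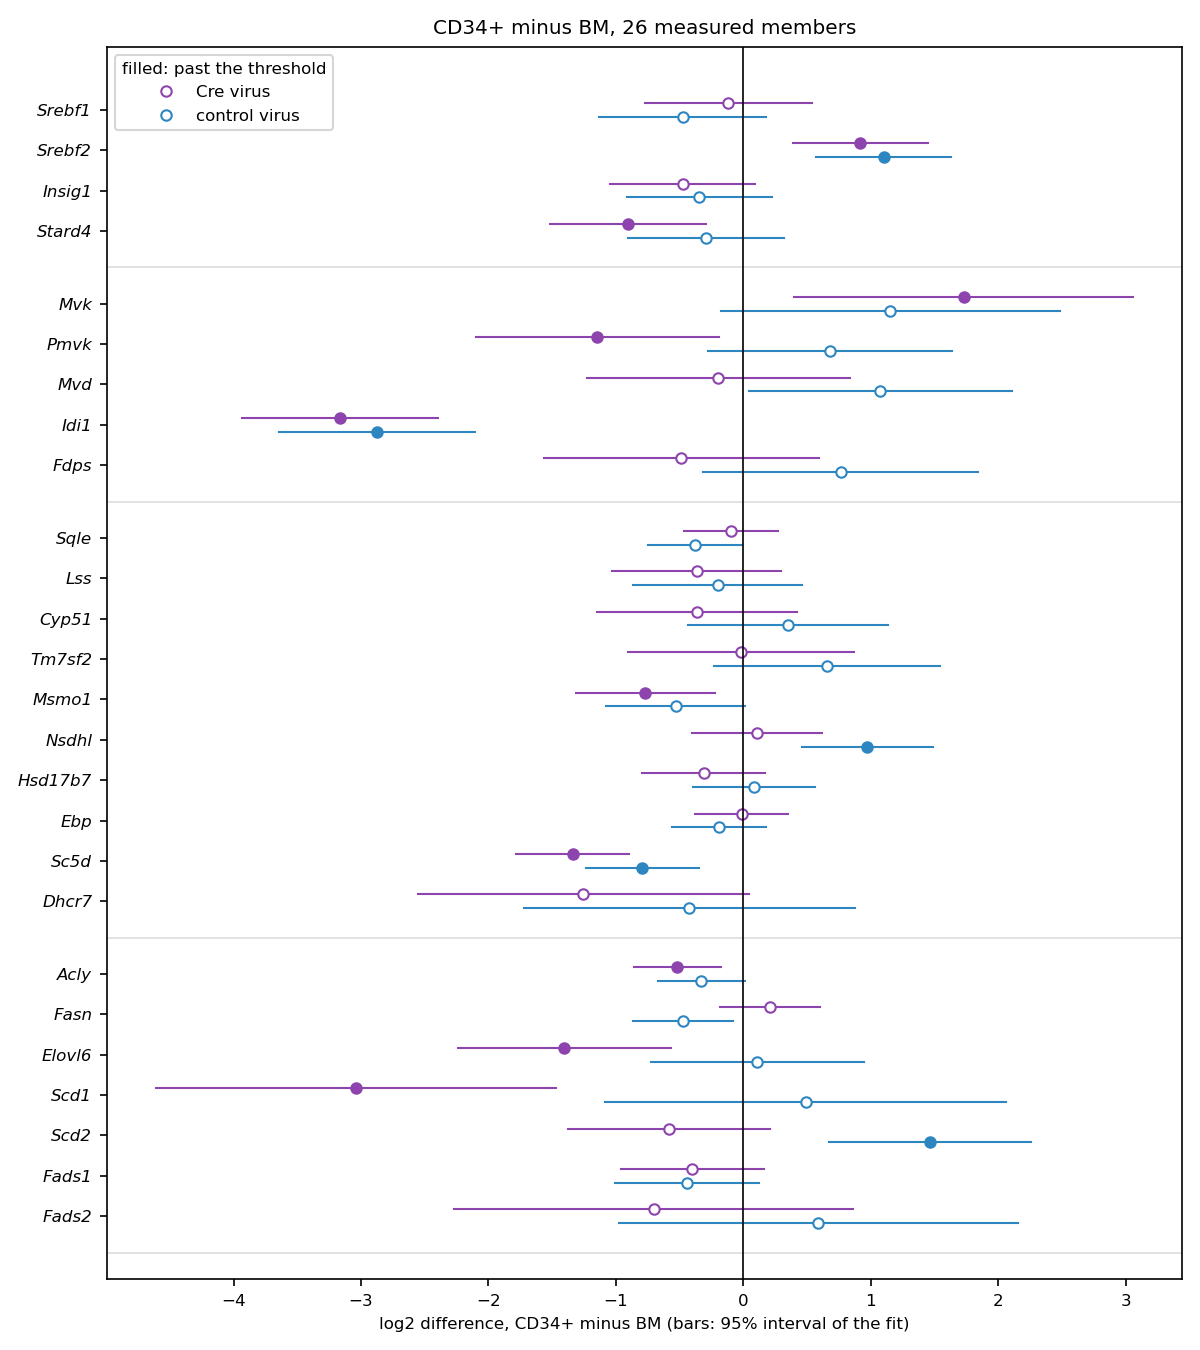
CD34+ minus BM log2 difference of each of 26 genes with the Cre virus (purple) and the empty virus (blue), with 95% intervals of the fit and filled symbols for called genes. Idi1 lies near -3 with both viruses, and Scd1 lies at -3.04 with Cre and 0.49 with the empty virus.

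Genes that sense, import, export or use sterols and fatty acids were looked at from 3 further lists. In BM cells 1 of 8 measured genes of sterol sensing and uptake was called, Npc1, the lysosomal cholesterol exporter, lower with Cre by 0.57 ± 0.14 (limma, adjusted p = 0.0145), with a list median of -0.13. Its call was lost with the mean of probes (-0.26, adjusted p = 0.198), without BM Cre repeat 1 (adjusted p = 0.071) and without BM control repeat 2 (adjusted p = 0.067). None of 5 measured genes of sterol efflux was called and 1 had an unadjusted p under 0.05. That was Abcg1, a cholesterol exporter, at 6.97, 6.57 and 7.36 with Cre, against 6.09, 5.49 and 5.32 without (1.33 ± 0.48, adjusted p = 0.080, and 0.0149 with the repeat number as a block, which also called Lpcat3, a phospholipid acyltransferase, at 0.0302). Of 18 measured genes of fatty acid supply and use, 3 were called higher and 2 lower. Fabp5, a fatty acid carrier, was higher by 1.82 ± 0.39 (adjusted p = 0.0065), at 8.38, 8.25 and 8.48 with Cre, against 5.41, 7.53 and 6.71 without. Acsl3, which activates long-chain fatty acids, was higher by 1.76 ± 0.47 (adjusted p = 0.0234), and Slc25a1, which exports mitochondrial citrate for Acly, by 0.78 ± 0.22 (adjusted p = 0.0325). Me1, the malic enzyme that makes NADPH, was lower by 1.39 ± 0.33 (adjusted p = 0.0139), and Ppard, a nuclear receptor for fatty acids, by 0.53 ± 0.16 (adjusted p = 0.0364). Of 25 alternatives Fabp5 was called in 24, Me1 in 22, Acsl3 in 19, Slc25a1 in 18 and Ppard in 14. Fabp5 had a difference of 0 in the authors' value table, where every array was at the floor. Without BM control repeat 2 the calls of Acsl3, Slc25a1, Me1 and Ppard were lost, and likewise without BM Cre repeat 1. Acsl3 also lost its call without BM Cre repeat 2 or 3 or BM control repeat 3, Slc25a1 without BM Cre repeat 3 or BM control repeat 3, and Ppard without any 1 BM array or CD34+ Cre F2-2.

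In CD34+ cells no gene of these 3 lists was called with Cre (limma), and those with an unadjusted p under 0.05 numbered 1 of 8 for sterol sensing, 0 of 5 for efflux and 0 of 18 for fatty acid supply. The genes with the smallest p were Npc1 (-0.49 ± 0.14, adjusted p = 0.187), Pltp (0.43 ± 0.23) and Acsl5 (0.28 ± 0.14). Without the array labelled Cre of marrow 4, Npc1 (-0.59, adjusted p = 0.0226) and Abcg1 (-1.41, adjusted p = 0.0201) were called. No gene of the lists was called in the difference of Cre differences. Of each list, 0 of 8, 1 of 5 and 6 of 18 had an unadjusted p under 0.05 (limma), against 1743 of 10315 over all genes. The smallest of each list were those of Lipa (-0.46 ± 0.27), Abcg1 (-2.09 ± 0.67, adjusted p = 0.110) and Me1 (1.68 ± 0.47, adjusted p = 0.063). With marrow number as a replicate block, Abcg1 (adjusted p = 0.0095), Me1 (0.0079) and Ppard (0.63, adjusted p = 0.0283) were called, and with repeat numbers as the block likewise (0.0219, 0.0235 and 0.0299). Without CD34+ Cre F4 Abcg1 (-2.74) and Me1 (2.08) were called, and without BM control repeat 2 Fabp5 (-2.15, adjusted p = 0.0106). Between populations, Fabp5 was undetected on all CD34+ arrays and was at least 7.26-fold lower than in BM cells with Cre and at least 2.05-fold lower without. Lipa, the lysosomal acid lipase, was lower in CD34+ cells by 1.66 ± 0.19 with Cre and 1.20 ± 0.19 without. Npc2, which acts with Npc1 in lysosomal cholesterol export, was lower by 1.76 ± 0.21 and 1.29 ± 0.21. Osbp, an oxysterol-binding protein, was lower by 1.08 ± 0.15 and 1.29 ± 0.15. Elovl1, which elongates very long-chain fatty acids, was higher by 1.19 ± 0.12 and 1.13 ± 0.12. Npc1 was higher by 0.85 and 0.77 on its brightest probe, but the mean of its probes was of opposite sign (-0.28 and -0.22).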

How the data were processed

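RNA of 12 samples was read on 1-colour Illumina BeadChips. Probe intensities were deposited by the authors as linear scanner values with a background already subtracted and no scaling between arrays, per the file headers and the values themselves. Each carries a detection p-value, deposited in the same table per the file headers. The authors' value table of scaled intensities, for which RMA is named per the submitters' processing notes without a version, has a floor of 24, and its centring is unknown here. It served as an alternative.

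Intensities were corrected with normexp, given an offset of 16, quantile-normalised and put on the log2 scale (neqc of limma 3.58.1, R 4.3.3). Probes detected at p under 0.05 on at least 3 arrays were kept (19274 of 45281), and the brightest probe stood for a gene. Of all probes, 34885 had 1 gene symbol in the platform annotation, 18 had several and 10378 had none. One limma model of 4 group means gave 5 comparisons, each adjusted by Benjamini-Hochberg over 10315 genes, with a threshold of 0.05. The fit was tested on simulated data with errors independent between arrays. That test held no repeats of a marrow and no shared deviation of same-numbered arrays, so it does not cover these. The number of arrays limits the precision.

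Array values are given for genes called in a Cre comparison or in the difference, and for 8 further genes with the smallest p in BM cells. The members and lists were chosen with earlier results of these data known. CD34+ arrays pair by labelled marrow. BM arrays of the same number deviated together (r = 0.134, 0.429 and 0.365 across genes, which are not independent), so blocked counts or values are given beside the Cre results they change. The repeats of marrow 2 are not independent marrows. Alternatives covered background, scaling, offset, filter, probe choice, the authors' table, blocks and each array left out.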

Additional observations from a re-analysis of the deposited data

Results flagged for a closer look

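The Cre difference of Scd2 was called in the test of that difference between populations, as 1 of 26 genes, against 5.75% of all genes. In CD34+ cells Scd2 averaged 8.67 ± 0.09 with Cre and 9.08 ± 0.68 with the empty virus, and in BM cells 9.25 ± 0.28 with Cre and 7.61 ± 0.69 with the empty virus (SD, n = 3 each). The difference, CD34+ minus BM, was -2.05 (limma, adjusted p = 0.0371). The call was kept in only 11 of 24 alternatives. Among others, it was lost with the repeats of marrow 2 averaged (adjusted p = 0.18) and with marrow by arm as a random block (adjusted p = 0.127). Within CD34+ pairs Scd2 was lower with Cre in marrow 2 (-0.86 and -0.77) and higher in marrow 4 (0.41), while it was higher in all 3 BM pairs (0.91, 2.19 and 1.82).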

How the results depend on the processing

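The number of the 26 genes called was recomputed under each alternative. For Cre in CD34+ cells it was 1, between 0 and 3 with 1 array left out, and 0 with no background correction, median scaling, an offset of 50, no filter, the authors' table, each population alone, the repeat number as a replicate block, averaged repeats of marrow 2 and marrow by arm as a random block. For Cre in BM cells it was 6, between 3 (without BM Cre repeat 1 or BM control repeat 2) and 9 (without the CD34+ array labelled Cre of marrow 4), 10 with each population alone and 12 with either replicate block. For the difference it was 1, between 0 and 3 with 1 array left out (3 without CD34+ control marrow 4), 0 with detection on 6 arrays, 2 with the mean of probes, 5 with the marrow block and 7 with the repeat block, and 0 with averaged repeats or the random block. For CD34+ minus BM with Cre it was 10, and between 5 (without BM Cre repeat 1) and 10 with 1 array left out. With the empty virus it was 5, between 5 and 10 with 1 array left out (10 without marrow 4 of either CD34+ arm), 3 in the authors' table and 13 with either replicate block. All-gene shares rose with the repeat block too. Genes higher with Cre in BM cells went from 8.59% to 12%, and the difference from 5.75% to 9.2%. For CD34+ minus BM with the empty virus the share under that block was 47.9%. Member counts alone are therefore no result about the pathway. Of single-gene values called in the main setting or under the alternative, 6 changed sign, all in CD34+ minus BM, and values not called changed sign too. With the mean of probes these were Npc1 (-0.28 with Cre and -0.22 without), Acsl4 (-0.21 and -0.26) and, with the empty virus, Lpcat3 (-0.95), and with median scaling Mbtps1 (-0.088, empty virus). The cause was not tested beyond the probes' own disagreement. Elovl6 and Scd2 in BM cells were called in all 25 alternatives run, Pmvk in 24, Scd1 in 23, Sc5d in 16 and Mvd in 12, while Fasn in CD34+ cells was called in 7 of 25 and the Scd2 difference in 11 of 24. A slide block was not run, as the headers give no slide. Probes near the detection limit, such as those of Fasn and Sc5d, give bounds where a group is undetected.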
